A study of Homo sapiens with 6 samples.

Results

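RMG1 is an established cell line of ovarian clear cell carcinoma, and its response to siRNAs against CPNE8 is described here from 3 of the 6 arrays of the series. RMG1 cells were transfected with siCPNE8 #A, with siCPNE8 #B or with siControl, and total RNA of each transfection was hybridised to 1 Affymetrix Clariom S array. The siCPNE8 siRNAs differ in sequence and target the same transcript, and they form 1 group in the fit below. The spread between them therefore holds differences between the siRNAs as well as between arrays. The labels do not say whether the arrays came from separate cultures. The other 3 arrays come from OVCAR3 cells, a serous ovarian line, transfected with siBHLHE41 #A, siBHLHE41 #B or siControl, and they enter below in the fit of the spread and in a short comparison. The labels name no other genetic change or drug, and the interval from transfection to RNA extraction for the arrays is not given in the sources used here. All values are the deposited log2 values, and a log2 ratio is the value with a siCPNE8 siRNA minus the value with siControl. The question addressed is which transcripts of RMG1 cells differ after CPNE8 knockdown.

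CPNE8 encodes copine 8, a member of a family of cytosolic proteins that bind phospholipid membranes when calcium rises. In the canonical NF-κB pathway, receptors of the TNF and interleukin-1 type activate a kinase complex that marks the inhibitor IκB for degradation, the released dimers enter the nucleus, and among their targets are their own inhibitors, chemokines and survival genes. The urokinase system converts plasminogen into plasmin at the cell surface, and ligands of the EGF receptor are shed from the membrane and act on the cell that made them or on its neighbours.

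Of the 21448 transcript probes, those with 1 gene symbol gave 17687 named genes. Background was set for each array as the 95th percentile of its 612 negative control probes, which was 7.90 with siCPNE8 #A, 7.86 with #B and 7.98 with siControl. A gene is called bright if its mean over the 3 RMG1 arrays exceeded the mean of these percentiles (7.91), which 7591 genes did, and dim otherwise (10096 genes). Of the bright genes, 7220 were above background on all 3 arrays and 371 were not above it on at least 1 of them. The median log2 ratio over bright genes was 0.0027 with #A and 0.0352 with #B. A gene was counted as higher or lower if it was over 1.5-fold or under 0.66-fold of siControl with both siRNAs, the cut the study used. Of the genes so counted, 34 higher and 16 lower were not above background on at least 1 array. Where that holds for every array of a condition, the fold is given as a lower bound ("at least"), taken on each such array against the lowest signal above background or the gene's own reading, whichever is larger, and it can fall short of the 1.5-fold that the readings gave. Both ratios of a gene contain the same siControl array, so a deviation of that array enters both, and the SD given beside a mean log2 ratio is that between the 2 siRNAs. In limma's fit to all 6 arrays, with 2 residual degrees of freedom, 0 of 21448 probes had an adjusted p under 0.05 (0%), the lowest adjusted p from limma was 0.859, and 570 probes above and 611 below siControl had an unadjusted p under 0.05. The ratios below are therefore measurements on single arrays whose differences from siControl did not pass a test across all probes.

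Markers of epithelium and of clear cell carcinoma were largely present. All 5 epithelial markers checked, EPCAM, KRT8, KRT18, KRT7 and CDH1, lay between 12.13 and 16.10 with the siCPNE8 siRNAs and between 11.68 and 16.12 with siControl. Of 10 measured markers of clear cell carcinoma 9 were above background on every RMG1 array, the exception being NAPSA, the aspartic protease napsin A used to diagnose this histotype, which read 4.40 with #A, 4.48 with #B and 4.58 with siControl. Of 6 markers of serous carcinoma, PAX8, a Müllerian lineage factor, read 15.49 with #A, 15.39 with #B and 15.36 with siControl and MUC16, the antigen CA-125, read 12.18 with #A, 11.58 with #B and 11.80 with siControl, while WT1, ESR1, PGR and MEIS1 were not above background on any RMG1 array. None of the 3 measured immune markers (PTPRC, CD3E, CD14) and none of the 3 endothelial markers (PECAM1, CDH5, VWF) was above background on any RMG1 array, and of 4 fibroblast markers COL1A2 was.

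CPNE8 itself was the fourth furthest below siControl of all bright genes. The gene lies at chr12:38652203-38906835 in GRCh38.p14, and its log2 value was 10.67 with #A, 11.92 with #B and 13.76 with siControl. Relative to siControl, 0.117 of the signal was left with #A and 0.278 with #B, a mean log2 ratio of -2.47 ± 0.88 (SD over 2 siRNAs). Its standard error from limma was 0.54 and its adjusted p from limma 0.859. Knockdown was thus deeper with #A than with #B. Of the other copines, which share the calcium-binding domains of CPNE8, CPNE3 read 11.81 with #A, 12.17 with #B and 12.02 with siControl and CPNE2 read 11.56 with #A, 11.85 with #B and 11.33 with siControl, neither past the ratio, and the other 5 measured copines were dim.

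Of the 7591 bright genes, 192 (2.53%) were higher and 133 (1.75%) were lower than siControl with both siCPNE8 siRNAs. Of the 10096 dim genes 2.50% were higher and 3.42% lower, so dim genes passed the cut about as often upward and more often downward. The counts are therefore no measure of the size of a knockdown response. List counts below are to be read against the shares of bright genes. At a stricter 2-fold, 36 were higher and 30 lower. With the siRNAs taken singly, 582 bright genes (7.67%) were over 1.5-fold with #A and 387 (5.1%) with #B, while 615 (8.1%) were under 0.66-fold with #A and 276 (3.64%) with #B. Opposite directions were rare, with 1 bright gene higher with #A and lower with #B and 6 the other way round. Among the 133 lower genes, 109 read lower with #A than with #B, and among the 192 higher genes 130 read higher with #A than with #B. Over all bright genes 3469 read higher with #A and 4122 higher with #B, and the ratios spread more widely with #A (SD over genes 0.48) than with #B (0.35). The genes counted as lower were as bright with siControl as the average gene, with a median level of 9.66 with siCPNE8 and 10.72 with siControl, against 10.7 for all bright genes in both conditions, while those counted as higher had a median of 10.15 with siCPNE8 and 9.26 with siControl.

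**Figure D1:**
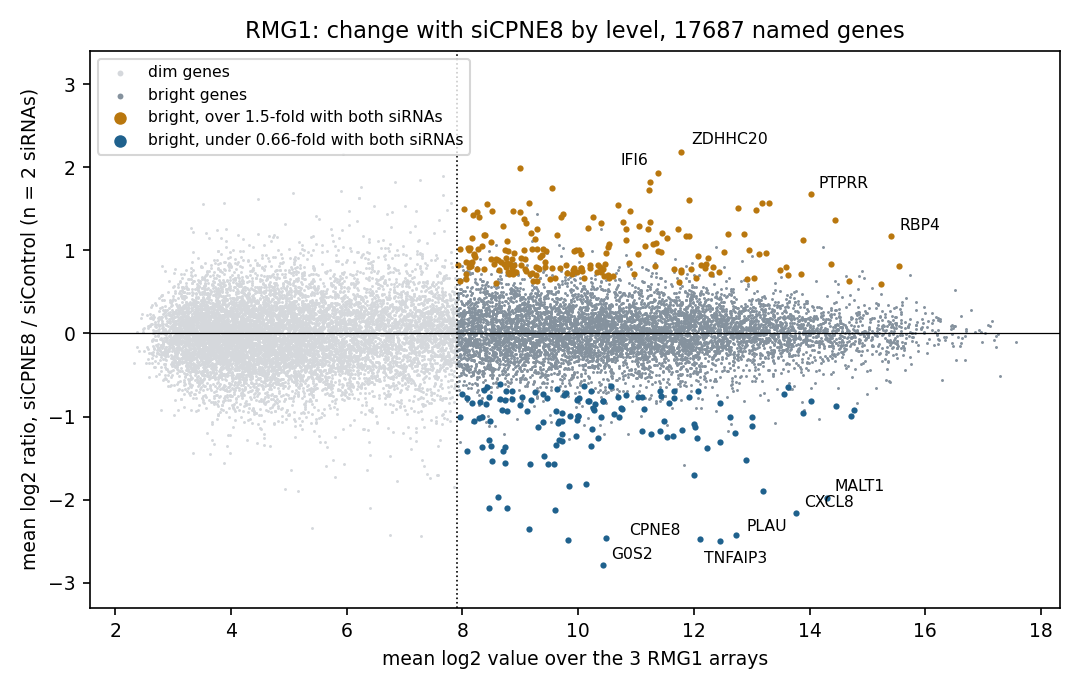
Mean log2 ratio of siCPNE8 to siControl (y axis, n = 2 siRNAs) against the mean log2 value over the 3 RMG1 arrays (x axis) for 17687 named genes, with the dotted line at the bright threshold of 7.91. The 192 higher genes (ochre) had a median level of 10.15 with siCPNE8, and several of the 133 lower genes (blue), such as CXCL8 and MALT1, are among brightly read transcripts.

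The genes furthest below siControl after the knockdown were G0S2, TNFAIP3, EDN1, CPNE8, ETS1, PLAU and HBEGF, and those furthest above were ZDHHC20, SCGB2A1, IFI6, ANXA9, GABARAPL1, NALF1 and PTPRR. In most of them the siRNAs differed in size, with G0S2 at -3.85 with #A and -1.73 with #B, whereas HBEGF, PTPRR and SLC8A1 had nearly equal ratios.

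**Figure D2:**
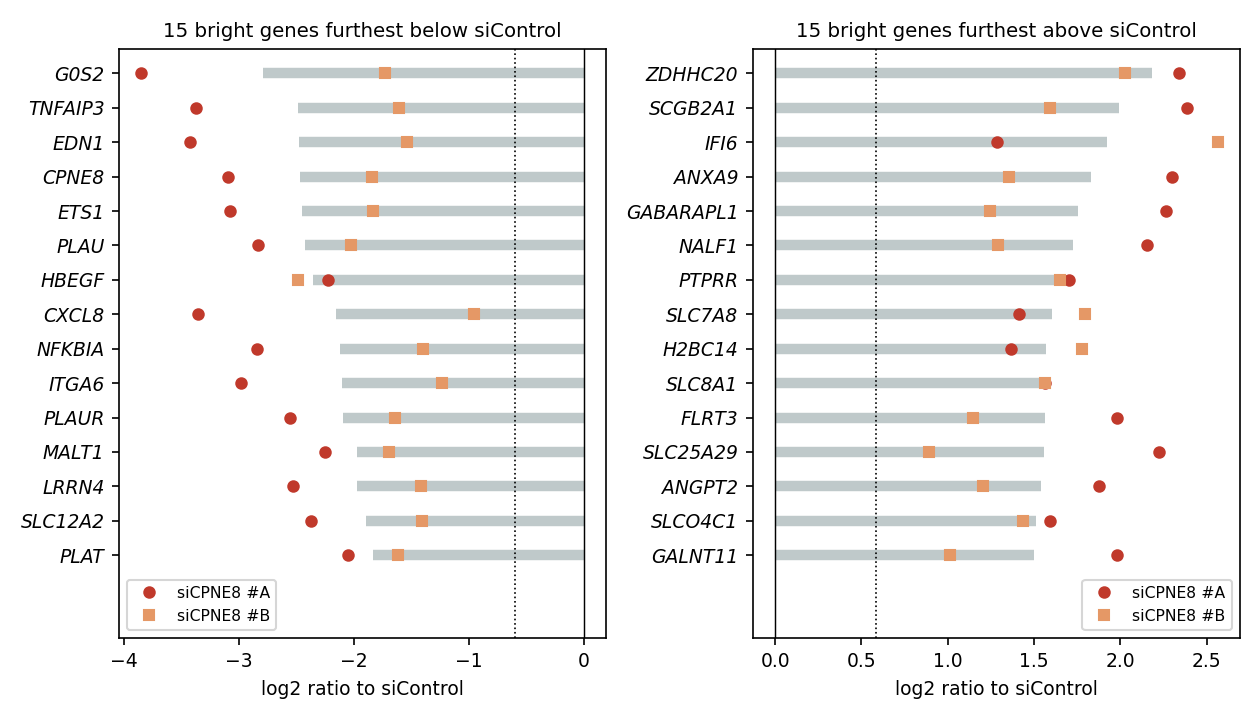
Log2 ratio to siControl with siCPNE8 #A (circles) and #B (squares) of the 15 bright genes furthest below (left) and above (right) siControl, with grey bars at the mean and dotted lines at 0.66-fold and 1.5-fold. CXCL8 shows the widest gap between the siRNAs (-3.36 and -0.96), and SLC8A1 the narrowest (1.57 and 1.56).

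NF-κB genes lay mostly below siControl. Of 20 bright members of a list of NF-κB subunits and regulators, 6 were lower with both siRNAs and 0 were higher, against 1.75% and 2.53% of all bright genes, and the median log2 ratio of the list was -0.70 (#A) and -0.21 (#B). TNFAIP3, a ubiquitin-editing inhibitor induced by NF-κB, had a log2 value of 10.74 with #A, 12.51 with #B and 14.12 with siControl. NFKBIA, the inhibitor IκBα that holds the dimers in the cytoplasm, read 8.17 with #A, 9.62 with #B and 11.01 with siControl. Both inhibitors stood lowest with #A, intermediate with #B and highest with siControl. Of the subunits, NFKB1 read 10.71 with #A, 11.34 with #B and 12.20 with siControl, and NFKB2 read 10.50 with #A, 10.38 with #B and 11.33 with siControl. RELA, which carries the main activation domain of the canonical dimer, read 9.11 with #A, 9.68 with #B and 9.82 with siControl and was not past the ratio, and RELB was dim. The non-canonical branch was lower at both its kinase and its brake: MAP3K14, the kinase that starts it, had a mean log2 ratio of -1.36 ± 0.34, and TRAF3, the adaptor that keeps that kinase low, had -0.84 ± 0.30 (SD over 2 siRNAs). MALT1, a protease of the complex that links antigen and other receptors to NF-κB and not a member of the list, was lower as well, at 13.36 with #A, 13.92 with #B and 15.61 with siControl.

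As examples of promoters that hold the motifs, and chosen with their matches known, the 300 bases around the start of 3 of these genes are given from RefSeq (GRCh38.p14, from 250 bases upstream to 50 downstream, 5′ to 3′ on the gene's strand). TNFAIP3 is at chr6:137867009-137867308 on the forward strand, NFKBIA at chr14:35404700-35404999 on the reverse strand and CXCL8 at chr4:73740319-73740618 on the forward strand. Capitals mark matches on either strand to the κB consensus or to its shorter form GGNNTTTCC, which may overlap each other, and in CXCL8 also to the AP-1 motif TGANTCA.
TNFAIP3: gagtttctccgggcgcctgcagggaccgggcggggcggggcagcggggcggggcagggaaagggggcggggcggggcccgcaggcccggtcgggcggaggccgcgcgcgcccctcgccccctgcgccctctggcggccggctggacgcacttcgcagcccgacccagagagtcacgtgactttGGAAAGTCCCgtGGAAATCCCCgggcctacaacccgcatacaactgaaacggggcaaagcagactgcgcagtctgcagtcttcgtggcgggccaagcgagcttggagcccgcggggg
NFKBIA: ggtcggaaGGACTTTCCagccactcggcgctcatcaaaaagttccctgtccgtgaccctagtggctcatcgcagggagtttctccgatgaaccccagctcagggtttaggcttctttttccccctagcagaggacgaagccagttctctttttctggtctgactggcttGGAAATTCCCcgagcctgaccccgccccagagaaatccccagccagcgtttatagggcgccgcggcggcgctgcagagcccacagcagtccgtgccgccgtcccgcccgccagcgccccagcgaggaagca
CXCL8: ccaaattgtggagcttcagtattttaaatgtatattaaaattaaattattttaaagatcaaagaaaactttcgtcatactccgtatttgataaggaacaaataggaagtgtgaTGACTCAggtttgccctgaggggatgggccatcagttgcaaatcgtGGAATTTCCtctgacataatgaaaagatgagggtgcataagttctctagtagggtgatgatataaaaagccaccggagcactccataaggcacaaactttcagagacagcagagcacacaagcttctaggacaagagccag
Of all 27305 promoters of the table, 10.8% hold the κB consensus, 6.26% hold GGNNTTTCC, 15.2% hold at least 1 of these and 7.76% hold TGANTCA. Among the 6392 bright genes with a promoter on record these shares were 12.5%, 6.84%, 17.0% and 4.15%. A promoter was on record for 153 of the 192 higher and 100 of the 133 lower genes, fewer than 80% of each, so a comparison of these shares between higher and lower genes would be void and is not given.

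Chemokines made by epithelial tumor cells were few but low. Of 4 bright chemokines 3 were lower with both siRNAs, against 1.75% of all bright genes. CXCL8, the neutrophil attractant interleukin-8, read 11.84 with #A, 14.24 with #B and 15.20 with siControl, the widest difference between the siRNAs of all bright genes past the ratio. CXCL1, which acts on the same receptor, read 8.60 with #A, 9.23 with #B and 10.39 with siControl, and CXCL2 read 7.45 with #A, 8.98 with #B and 9.77 with siControl, not above background with #A. All 3 read lowest with #A and highest with siControl. For CCL20, a ligand of CCR6 that was above background with siControl but with neither siCPNE8 siRNA, the level with siControl was at least 1.4-fold that with siCPNE8. CCL2 and CXCL10 were not above background on any RMG1 array.

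Among cytokines and their receptors the direction was mixed. IL6 read 12.35 with #A, 13.75 with #B and 14.13 with siControl, under 0.66-fold with #A and not with #B, so it was not counted. The interleukin-1 receptor decoy IL1R2 had a mean log2 ratio of -0.74 ± 0.13, and IRAK2, a kinase of interleukin-1 signaling, had -1.57 ± 0.96 (SD over 2 siRNAs). IL18 ran the other way, reading 13.68 with #A, 13.22 with #B and 12.50 with siControl. IL18 was the sole bright gene of the interleukin-1 list over 1.5-fold with both siRNAs. In the TNF superfamily, the receptor CD40 read 8.90 with #A, 10.17 with #B and 11.35 with siControl and TNFRSF25 read 8.60 with #A, 8.14 with #B and 9.29 with siControl. By contrast, TNFRSF11B, the decoy receptor osteoprotegerin, read 14.63 with #A, 14.66 with #B and 13.81 with siControl, and LTBR, the lymphotoxin receptor that feeds the non-canonical NF-κB branch, read 12.18 with #A, 11.88 with #B and 11.26 with siControl. The list of TNF ligands and receptors thus held 2 lower and 2 higher genes among 15 bright members. In the IL6 and STAT3 list PIAS3, an inhibitor of STAT3, was higher as deposited (12.19 with #A, 10.78 with #B, 10.19 with siControl) but not after quantile normalization, and IL6R was lower (8.19 with #A, 8.22 with #B, 8.86 with siControl), while STAT3 itself had a mean log2 ratio of -0.30 ± 0.08 (SD over 2 siRNAs) and was not past the ratio.

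EGF receptor ligands formed another group below siControl. HBEGF, a heparin-binding ligand shed from the membrane, read 8.50 with #A, 8.24 with #B and 10.73 with siControl (limma standard error 0.27, limma adjusted p 0.859). TGFA read 11.57 with #A, 11.71 with #B and 12.77 with siControl, and NRG1, a ligand of ERBB3, was not above background with either siCPNE8 siRNA, so that its level with siControl was at least 1.64-fold theirs. The ligand betacellulin was the exception, since BTC read 9.07 with #A, 9.23 with #B and 8.26 with siControl. EGFR itself was under 0.66-fold with #A and not with #B (11.42 with #A, 12.06 with #B, 12.64 with siControl), and ERBB3 had a mean log2 ratio of 0.23 ± 0.29 (SD over 2 siRNAs). In all, 3 of 9 bright members were lower and 1 was higher, against 1.75% and 2.53% of all bright genes. Of 13 bright feedback inhibitors of ERK 0 were lower and 0 higher with both siRNAs. At 1.75% and 2.53% of all bright genes, a list this short could well hold none. With #A alone 2 were under 0.66-fold and 1 over 1.5-fold, and with #B alone 0 and 1. DUSP5 read 12.36 with #A, 13.26 with #B and 13.39 with siControl. DUSP6 read 10.59 with #A, 11.15 with #B and 11.34 with siControl, and SPRY4 9.20 with #A, 9.18 with #B and 8.89 with siControl. The activity of ERK was not tested.

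Transcription factors below siControl included ETS1, ELK3, MYC and FOSL1. ETS1, the founding member of the ETS family, read 9.04 with #A, 10.28 with #B and 12.12 with siControl, and ELK3, a member of the family that represses serum response genes, read 10.80 with #A, 12.06 with #B and 13.13 with siControl. Of 15 bright ETS genes these were the 2 lower, and EHF, an ETS factor of epithelia, read 14.13 with #A, 14.54 with #B and 14.37 with siControl. MYC read 10.78 with #A, 11.46 with #B and 12.36 with siControl, and its partner MAX had a mean log2 ratio of -0.13 ± 0.12 (SD over 2 siRNAs). FOSL1, an AP-1 subunit, read 12.04 with #A, 12.59 with #B and 13.52 with siControl, whereas FOS, JUN, EGR1 and ATF3 were dim. Like MYC, ETS1 and ELK3, FOSL1 read lowest with #A. CCN1, a secreted matrix protein counted with the immediate early genes, read 11.20 with #A, 11.63 with #B and 12.58 with siControl.

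The plasminogen system had the largest share of lower genes of all lists with 10 or more bright members. Of 12 bright members 5 were lower and 0 higher, against 1.75% and 2.53% of all bright genes. The median log2 ratio of the list was -0.77 (#A) and -0.60 (#B). PLAU, the urokinase that cleaves plasminogen, read 11.52 with #A, 12.33 with #B and 14.35 with siControl. Its receptor PLAUR read 7.31 with #A, 8.23 with #B and 9.87 with siControl, not above background with #A, and PLAT, the tissue-type activator, read 9.01 with #A, 9.46 with #B and 11.07 with siControl. The inhibitors were lower too, SERPINE2, which blocks urokinase and thrombin, at 9.31 with #A, 9.80 with #B and 10.79 with siControl and SERPINB8 at 9.30 with #A, 10.03 with #B and 10.66 with siControl. These 5 genes, an activator and its receptor, a second activator and inhibitors, lay below siControl on both siCPNE8 arrays. The other 7 bright members were not past the ratio with both siRNAs, and 2 of them were over 1.5-fold with #A. For PLAU limma gave an adjusted p of 0.859, with a standard error of 0.39.

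**Figure D3:**
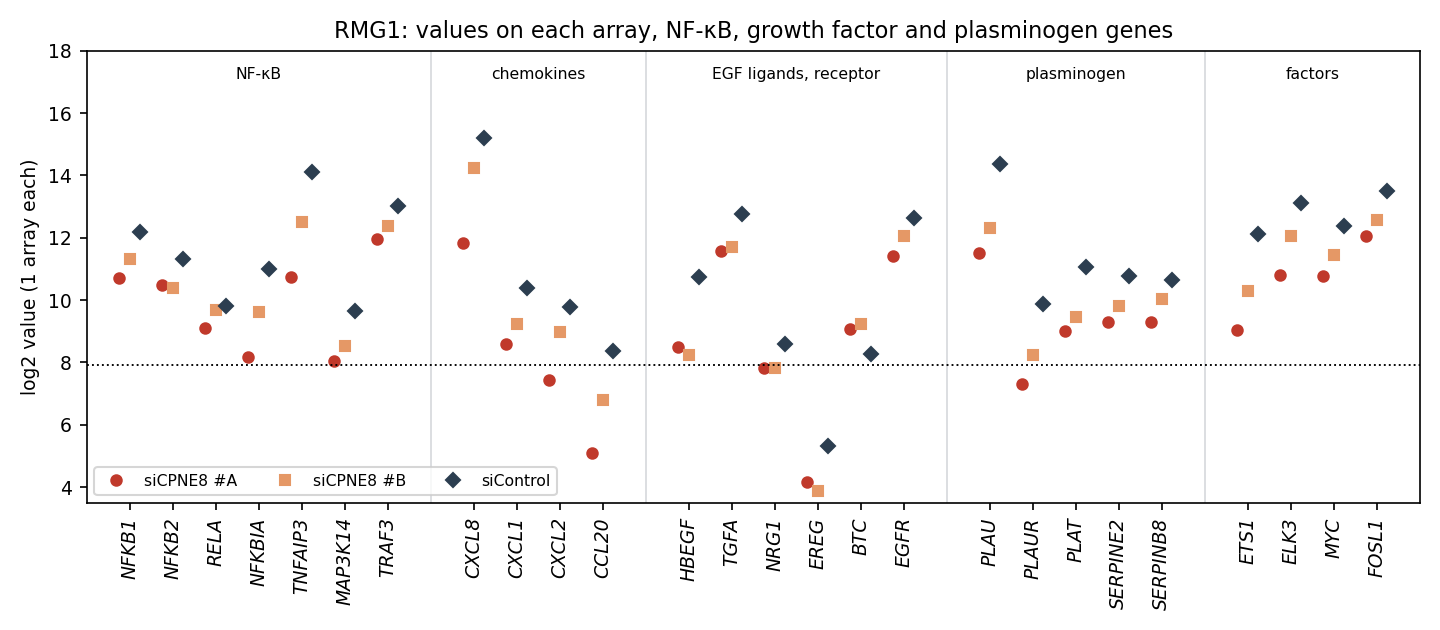
Log2 values (y axis) on the siCPNE8 #A (circle), siCPNE8 #B (square) and siControl (diamond) arrays for named genes of NF-κB, chemokines, EGF ligands and receptor, the plasminogen system and transcription factors, with the dotted line at the bright threshold of 7.91. Most plotted genes are ones counted as lower, and ERBB3 and EHF, which read above siControl with #B, are not plotted. Within that choice the siControl diamond tops every gene except BTC, which lay below both siCPNE8 values.

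Genes of cell adhesion and matrix gave a narrower set. Of 12 bright integrin and laminin genes 3 were lower, namely ITGA6, ITGA2 and ITGB8, against 1.75% of all bright genes. ITGA6, the laminin-binding subunit, read 7.19 with #A, 8.94 with #B and 10.17 with siControl, not above background with #A, while ITGA2, the collagen-binding subunit, read 9.94 with #A, 10.18 with #B and 11.06 with siControl and ITGB8 read 14.13 with #A, 14.21 with #B and 15.04 with siControl. The common subunit ITGB1 had a mean log2 ratio of -0.19 ± 0.02 (SD over 2 siRNAs). Among collagens, COL6A1 was lower (8.73 with #A, 9.92 with #B, 10.53 with siControl) and COL4A1, of basement membrane, was higher (10.03 with #A, 10.24 with #B, 9.42 with siControl), and FN1 passed with #A alone (14.23 with #A, 14.84 with #B, 15.37 with siControl). Of 25 bright cadherin, claudin and tight junction genes 0 were lower and 0 higher, with CDH1 at 12.13 with #A, 12.21 with #B and 11.68 with siControl. KRT7, KRT8, KRT18 and KRT19 had mean log2 ratios between -0.37 and -0.05, and KRT80 was the bright keratin past the ratio (8.49 with #A, 9.37 with #B, 10.06 with siControl). Matrix metalloproteinases and their inhibitors gave no bright gene past the ratio, MMP7 reading 15.32 with #A, 15.74 with #B and 15.79 with siControl.

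In lipid and sugar metabolism single genes lay far from siControl. G0S2, an inhibitor of the triglyceride lipase PNPLA2, was the gene furthest below siControl, reading 8.43 with #A, 10.56 with #B and 12.29 with siControl. Of 19 bright lipid droplet and lipolysis genes LIPG, a phospholipase of lipoproteins, and MGLL, which cleaves monoglycerides, were the other lower ones, LIPG not above background with #A, with mean log2 ratios of -1.54 ± 0.95 and -0.77 ± 0.18 (SD over 2 siRNAs). Of the glycolysis and hypoxia genes, HK2, the hexokinase of many tumors, read 7.45 with #A, 8.32 with #B and 9.25 with siControl (not above background with #A), the glucose transporter SLC2A1 read 13.24 with #A, 13.39 with #B and 14.04 with siControl and VEGFA read 11.86 with #A, 11.80 with #B and 12.53 with siControl. In HK2 and SLC2A1 the #A reading was the lowest, and in VEGFA the siCPNE8 readings nearly coincided. STC1, a secreted glycoprotein also induced by hypoxia, ran against them at 11.81 with #A, 11.49 with #B and 10.57 with siControl, and LDHA read 16.54 with #A, 16.51 with #B and 16.43 with siControl. The list thus held 3 lower and 1 higher gene among 34 bright members, against 1.75% and 2.53% of all bright genes. For cholesterol synthesis the siRNAs parted, with HMGCS1 at -1.12 with #A and 0.24 with #B, a list median of -0.30 (#A) and 0.11 (#B), and 24 of 29 bright members reading higher with #B than with #A.

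EDN1, LRRN4 and SLC12A2 complete the genes furthest below siControl. EDN1, the vasoconstrictor peptide endothelin-1, read 8.05 with #A, 9.94 with #B and 11.47 with siControl, and its converting enzyme ECE1 read 13.37 with #A, 13.44 with #B and 14.05 with siControl. LRRN4, a leucine-rich repeat membrane protein, read 7.41 with #A, 8.53 with #B and 9.94 with siControl, not above background with #A. SLC12A2, the sodium, potassium and chloride cotransporter of secretory epithelia, read 12.08 with #A, 13.05 with #B and 14.46 with siControl.

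At the other end, ZDHHC20 was the bright gene furthest above siControl. ZDHHC20, a palmitoyltransferase that modifies membrane proteins, read 12.66 with #A, 12.34 with #B and 10.32 with siControl, 5.06-fold and 4.07-fold of siControl. Other members of its list stayed nearer to siControl, 1 of 19 being higher and 1 lower, ZDHHC2 (8.95 with #A, 8.89 with #B, 9.72 with siControl). ANXA9, an annexin, read 12.31 with #A, 11.37 with #B and 10.02 with siControl, and of the other 7 bright annexins none was past the ratio, ANXA2 reading 17.08 with #A, 17.26 with #B and 17.25 with siControl. PTPRR, a receptor-type tyrosine phosphatase that acts on MAP kinases, read 14.60 with #A, 14.55 with #B and 12.90 with siControl, with ratios that nearly coincide.

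The higher genes included membrane carriers and channels. Of 19 bright carriers of amino acids and creatine 4 were higher and 0 lower, against 2.53% and 1.75% of all bright genes. The median log2 ratio of that list was -0.03 (#A) and 0.13 (#B). SLC7A8, a carrier of neutral amino acids, read 12.27 with #A, 12.64 with #B and 10.85 with siControl, SLC7A2, which takes up arginine and lysine, read 11.95 with #A, 11.05 with #B and 10.45 with siControl (not over 1.5-fold with both siRNAs after quantile normalization), and the creatine carrier SLC6A8 read 12.39 with #A, 12.54 with #B and 11.67 with siControl. The main exchanger of leucine, SLC7A5, had a mean log2 ratio of 0.35 ± 0.12 (SD over 2 siRNAs) and was not past the ratio. The sodium-calcium exchanger SLC8A1 read 9.67 with #A, 9.67 with #B and 8.10 with siControl, and SLCO4C1, an organic anion carrier, read 13.34 with #A, 13.19 with #B and 11.75 with siControl. Each of these carriers read above siControl on both siCPNE8 arrays. SLC25A29, a mitochondrial carrier of basic amino acids, was not above background with siControl, and its level with siCPNE8 was at least 1.95-fold higher. Of 19 bright sodium, calcium and chloride channel genes 2 were higher, NALF1, a subunit of the sodium leak channel complex, at 12.22 with #A, 11.36 with #B and 10.07 with siControl and CLCN7, the lysosomal chloride exchanger, at least 1.71-fold higher with siCPNE8. Of 67 measured potassium channel genes 5 were bright and none of these was past the ratio.

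Genes known from neurons were seen on both sides. Of 11 bright synaptic adhesion and vesicle genes 3 were higher and 0 lower, against 2.53% and 1.75% of all bright genes. The median log2 ratio of that list was -0.07 (#A) and 0.28 (#B). CADM1, an adhesion molecule of synapses and epithelia, read 12.07 with #A, 11.65 with #B and 10.66 with siControl, and L1CAM, a neural adhesion molecule also made by ovarian and endometrial carcinomas, read 12.79 with #A, 11.84 with #B and 11.14 with siControl. FLRT3, a membrane ligand of axon guidance receptors, read 14.24 with #A, 13.41 with #B and 12.26 with siControl. Of 19 bright axon guidance genes 3 were lower and 1 was higher, against 1.75% and 2.53% of all bright genes. SEMA3C read 11.78 with #A, 12.26 with #B and 13.32 with siControl, EFNB1, not above background with #A, had a mean log2 ratio of -1.42 ± 0.74 and EFNB2 of -0.96 ± 0.30, while the transmembrane semaphorin SEMA6A had 1.12 ± 0.73 (SD over 2 siRNAs). The defining synaptic vesicle genes SYT1, SNAP25 and SYP were dim.

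Interferon-stimulated genes lay mostly above siControl, and further with #B. Of 31 bright members 7 were higher with both siRNAs and 0 lower, against 2.53% and 1.75% of all bright genes, and the median log2 ratio was 0.21 (#A) and 0.61 (#B). With #A 9 of the 31 were over 1.5-fold, against 7.67% of all bright genes, and with #B 17 were, against 5.1%. Of the 31, 26 read higher with #B than with #A, against 4122 of all 7591 bright genes. IFI6, an interferon-induced mitochondrial protein, read 11.39 with #A, 12.66 with #B and 10.10 with siControl. IFIT1, which binds foreign RNA lacking the host cap, read 10.03 with #A, 11.41 with #B and 9.32 with siControl, and IFIT3, its partner, read 9.05 with #A, 9.73 with #B and 8.39 with siControl. IRF9, the DNA-binding part of the interferon-activated complex, read 8.68 with #A, 9.14 with #B and 8.03 with siControl. MX1, an antiviral GTPase, was above background with #B alone (6.70 with #A, 9.05 with #B, 6.04 with siControl), and ISG15 was not above it on any RMG1 array. SP110 and GBP2 were further members past the ratio, SP110 at 10.03 with #A, 10.42 with #B and 8.79 with siControl and GBP2 at 9.73 with #A, 9.41 with #B and 8.78 with siControl. SAMD9, the seventh, was not above background with siControl and at least 1.48-fold higher with siCPNE8, and GBP2 was not over 1.5-fold with both siRNAs after quantile normalization.

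The promoters of IFI6 and IFIT1 are printed as examples of the group that hold the interferon motif, chosen with their matches known. IFI6 is at chr1:27672143-27672442 on the reverse strand and IFIT1 at chr10:89392373-89392672 on the forward strand (RefSeq, GRCh38.p14), and capitals mark matches on either strand to GAAANNGAAA, the core of the interferon-stimulated response element, which 3.65% of all 27305 promoters hold.
IFI6: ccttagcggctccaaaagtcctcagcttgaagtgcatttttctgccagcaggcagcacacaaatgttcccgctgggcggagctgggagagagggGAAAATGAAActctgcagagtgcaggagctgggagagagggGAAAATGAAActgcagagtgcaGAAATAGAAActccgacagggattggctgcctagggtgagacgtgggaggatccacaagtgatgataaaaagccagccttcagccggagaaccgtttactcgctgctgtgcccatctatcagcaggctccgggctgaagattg
IFIT1: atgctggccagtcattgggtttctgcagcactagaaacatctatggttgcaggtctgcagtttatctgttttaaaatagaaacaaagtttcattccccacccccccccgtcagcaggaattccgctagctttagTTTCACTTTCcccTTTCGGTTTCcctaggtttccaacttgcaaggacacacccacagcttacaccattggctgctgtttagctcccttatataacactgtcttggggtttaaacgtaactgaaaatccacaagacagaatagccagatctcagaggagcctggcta
The window of IFI6 holds 3 matches and that of IFIT1 holds 2.

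**Figure D4:**
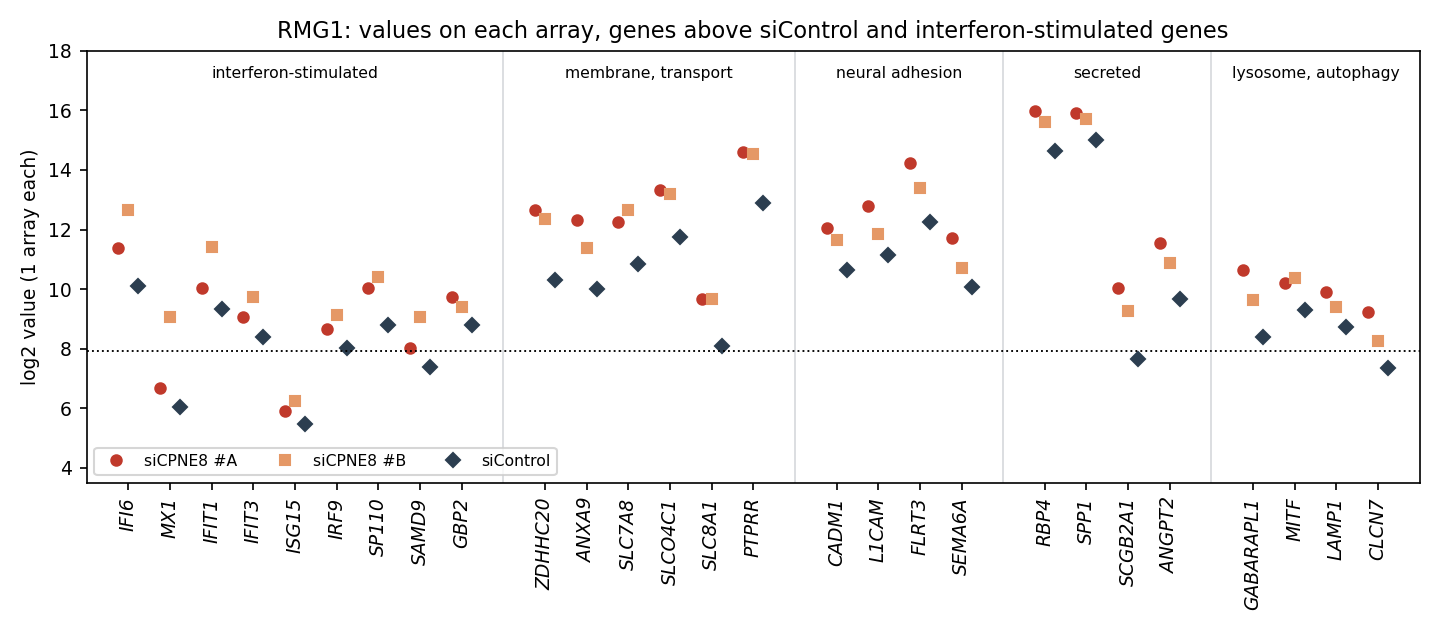
Log2 values (y axis) on the siCPNE8 #A (circle), siCPNE8 #B (square) and siControl (diamond) arrays for interferon-stimulated genes and for named genes of membrane transport, neural adhesion, secretion and the lysosome, with the dotted line at the bright threshold of 7.91. In the interferon-stimulated genes plotted the square of #B stands above the circle of #A except in GBP2. In the 4 secreted genes plotted the circle of #A stands above the square of #B.

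Of 19 bright markers of clear cell carcinoma, 3 were higher with both siRNAs and 2 lower, against 2.53% and 1.75% of all bright genes. RBP4, the plasma carrier of retinol, read 15.97 with #A, 15.62 with #B and 14.62 with siControl, and SPP1, the matrix phosphoprotein osteopontin, read 15.93 with #A, 15.70 with #B and 15.01 with siControl. AMACR, an enzyme of branched fatty acid oxidation used as a marker, read 9.39 with #A, 8.76 with #B and 8.07 with siControl. These 3 genes read highest with #A and lowest with siControl. On the lower side were CPNE8 itself, whose value is the knockdown, and RAPH1 (11.25 with #A, 11.34 with #B, 12.13 with siControl). ANXA4 and GPX3, other markers of this tumor, had mean log2 ratios of 0.67 ± 0.44 and 0.55 ± 0.12 (SD over 2 siRNAs) and were not past the ratio with both. The list leaves out NALF1, named FAM155A in the paper, which found it higher in clear cell than in serous carcinoma. NALF1 was higher with both siRNAs, reading 12.22 with #A, 11.36 with #B and 10.07 with siControl. Outside the marker list, SCGB2A1, a secretoglobin of glandular epithelia that was not above background with siControl, was at least 3.21-fold higher with siCPNE8, ANGPT2, a ligand of the endothelial receptor TIE2, read 11.54 with #A, 10.86 with #B and 9.66 with siControl, and the calcium-binding protein S100A14 was higher as well (9.48 with #A, 8.94 with #B, 8.25 with siControl).

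Autophagy, lysosome and insulin signaling genes gave moderate counts. GABARAPL1, which encodes a protein of the autophagosome membrane, read 10.65 with #A, 9.62 with #B and 8.38 with siControl, while its relative MAP1LC3B read 10.73 with #A, 10.79 with #B and 10.93 with siControl. MITF, a transcription factor of lysosomal genes, read 10.20 with #A, 10.38 with #B and 9.29 with siControl, and LAMP1, a lysosomal membrane glycoprotein, read 9.89 with #A, 9.41 with #B and 8.73 with siControl. GABARAPL1 and LAMP1 read highest with #A and MITF with #B. Together 3 of 43 bright genes were higher and 1 (UVRAG, a subunit of a lipid kinase complex of autophagy, 8.35 with #A, 8.42 with #B, 9.18 with siControl) was lower. IGF2R, the receptor that delivers enzymes and IGF2 to lysosomes, read 11.05 with #A, 10.68 with #B and 9.83 with siControl, and IRS2, an adaptor of the insulin receptor, read 9.35 with #A, 9.71 with #B and 10.52 with siControl. FOXO1, a factor restrained by insulin signaling, had a mean log2 ratio of 0.43 ± 0.05 (SD over 2 siRNAs) and was not past the ratio.

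In the TGF-β and BMP list ID1, a BMP target, read 10.14 with #A, 10.40 with #B and 9.28 with siControl, and GDF15, a secreted stress-induced member that was not above background with siControl, was at least 1.41-fold higher with siCPNE8. They were the 2 higher of 23 bright members, against 2.53% of all bright genes, and 0 were lower. Of the 35 dim members 6 were lower and 1 higher, against 3.42% and 2.50% of all dim genes. Among these 6, NOG and INHBB were above background with siControl alone. Their levels there were at least 1.12-fold (NOG) and 1.11-fold (INHBB) those with siCPNE8. GDF15 is also a p53 target, and DDB2, a DNA damage recognition factor, was at least 1.25-fold higher with siCPNE8. These were the 2 higher genes of the 24 bright p53 targets, again against 2.53% of all bright genes. Of the defining p53 targets, CDKN1A, a cell cycle inhibitor, read 10.33 with #A, 10.94 with #B and 10.91 with siControl, and MDM2, the ligase that degrades p53, read 12.85 with #A, 13.06 with #B and 12.97 with siControl, neither past the ratio. H2BC14, from a family of near-identical histone genes, read 13.50 with #A, 13.91 with #B and 12.13 with siControl, and GALNT11, which starts O-linked glycosylation, was not above background with siControl and at least 1.46-fold higher with siCPNE8.

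Mitosis and replication genes stayed near siControl, while some G1 genes were lower. Of all bright genes 2.53% were higher and 1.75% lower, and the counts of the mitosis and replication lists do not stand apart from these shares. Of 75 bright mitosis and spindle genes 1 was lower, AURKB (10.12 with #A, 10.19 with #B, 10.97 with siControl), and 0 were higher, the median log2 ratio being -0.14 (#A) and -0.01 (#B). MKI67, a marker of cycling cells, read 14.46 with #A, 14.48 with #B and 14.58 with siControl, and CCNB1 read 13.69 with #A, 13.68 with #B and 13.75 with siControl. In both genes the 3 arrays read nearly alike. Of 53 bright replication genes UHRF1 was higher (10.60 with #A, 10.89 with #B, 9.92 with siControl) and none was lower. Of 22 bright G1 genes CDK6 (9.10 with #A, 9.65 with #B, 10.43 with siControl) and E2F5 (10.02 with #A, 10.31 with #B, 10.98 with siControl) were lower, a share of 9.09%. CCNE1 was under 0.66-fold with #B and not with #A (11.33 with #A, 10.84 with #B, 11.89 with siControl), and CCND1 read 13.16 with #A, 14.04 with #B and 13.93 with siControl.

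The remaining lists held few genes past the ratio. Of 18 bright antigen presentation genes HLA-DMA, which loads peptides onto class II molecules, was not above background with siControl and at least 1.33-fold higher with siCPNE8, and RFX5, a factor that drives class II genes, was lower (8.12 with #A, 8.19 with #B, 8.83 with siControl). CD55, which protects cells from complement, was higher as deposited (14.93 with #A, 14.85 with #B, 14.26 with siControl) but not after quantile normalization. TGM2, a transglutaminase induced by retinoic acid, was lower (12.46 with #A, 12.80 with #B, 13.74 with siControl), against RBP4 on the higher side of the same list. ABCC3, an efflux pump of conjugated drugs, was lower (9.47 with #A, 9.80 with #B, 10.68 with siControl), and the Wnt receptor ROR1 was lower as well (10.09 with #A, 9.74 with #B, 11.18 with siControl). Of the lists of nuclear receptors (14 bright genes), coagulation (5), mucins (3) and epithelial and mesenchymal regulators (6), none gave a bright gene past the ratio. Each held dim genes past it. Among the epithelial and mesenchymal regulators these included SNAI1 upward and SNAI2 and OVOL1 downward, none of them above background on any RMG1 array.

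Housekeeping genes stayed near siControl as well. Of 47 bright ribosomal proteins, 64 subunits of oxidative phosphorylation and 46 nucleolar genes none was past the ratio in either direction. Only 48 of the 78 listed ribosomal proteins were measured, so that list is covered in part. Their median log2 ratios were 0.18 (#A) and 0.11 (#B) for ribosomal proteins, 0.18 (#A) and 0.16 (#B) for oxidative phosphorylation and -0.16 (#A) and -0.05 (#B) for the nucleolar genes. ATF4 targets and chaperones of the endoplasmic reticulum likewise gave 0 higher and 0 lower genes among 45.

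**Figure D5:**
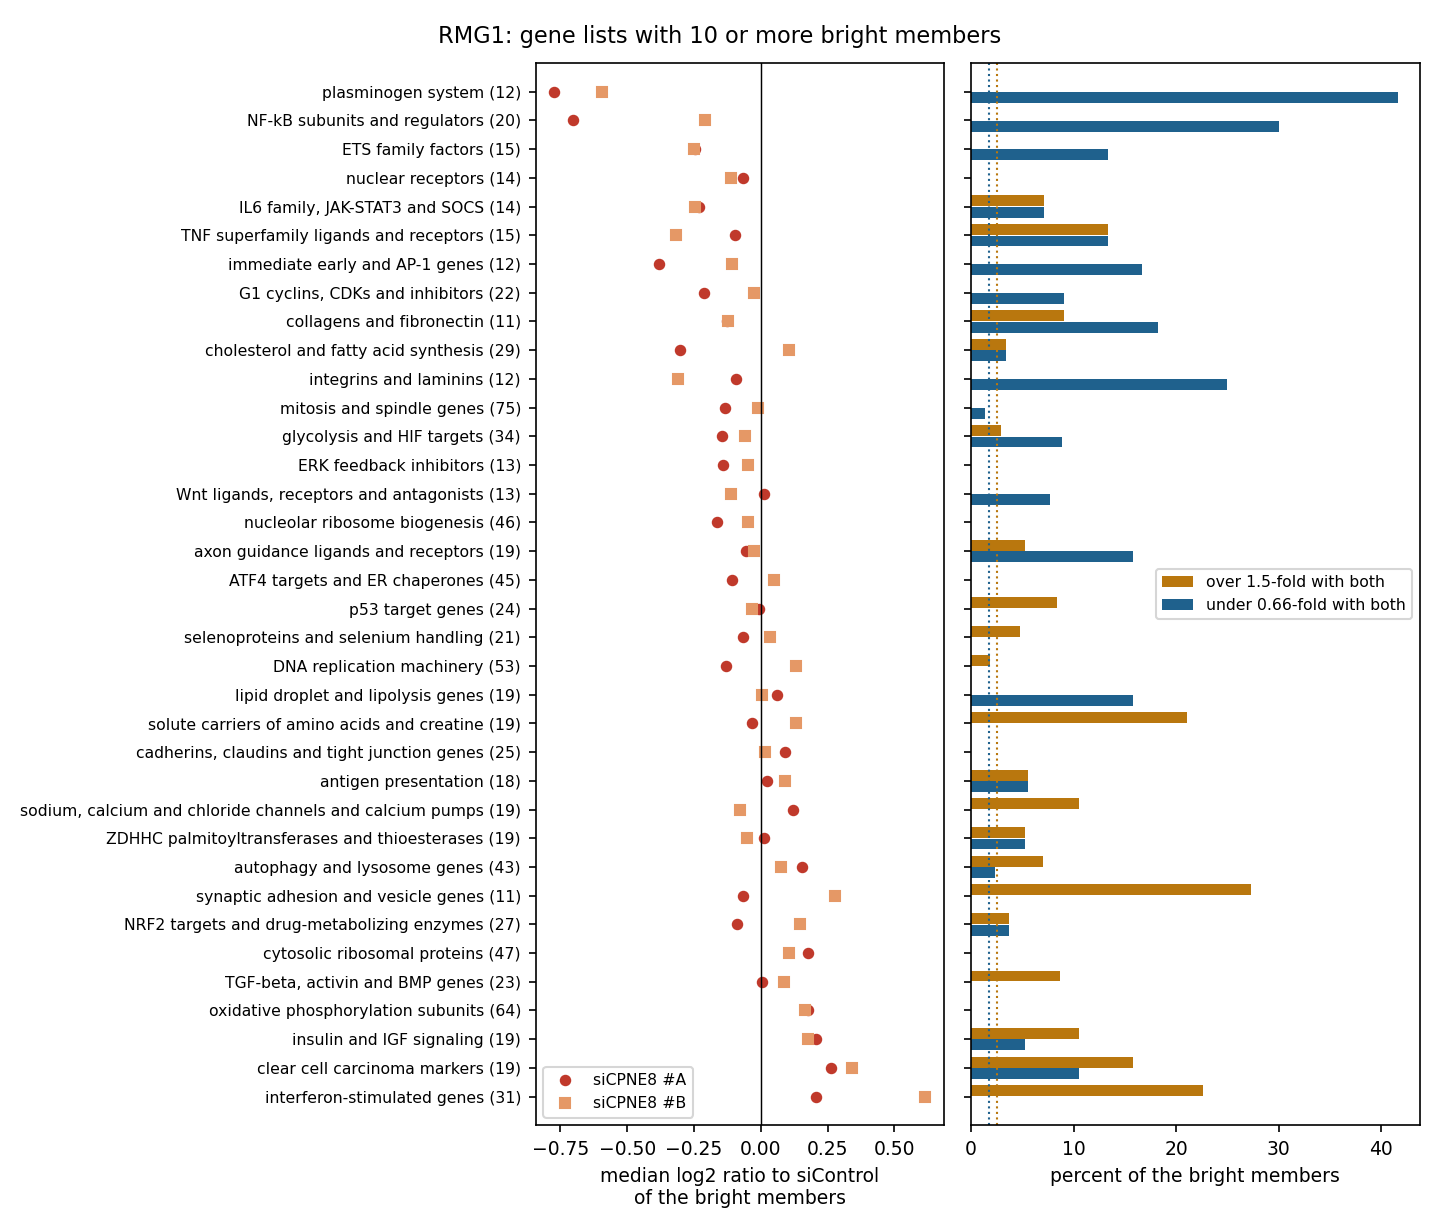
Gene lists with 10 or more bright members (number in brackets), with the median log2 ratio of the bright members (left, circles for siCPNE8 #A and squares for #B) and the percent of bright members over 1.5-fold (ochre) and under 0.66-fold (blue) with both siRNAs (right), where dotted lines give the shares over all bright genes, 2.53% and 1.75%. Lists are ordered by the median of the mean ratio over both siRNAs, in which the plasminogen and NF-κB lists stand lowest and interferon-stimulated genes highest, while with a single siRNA the order differs.

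Of the 133 lower genes 57 belonged to at least 1 of the 54 lists and of the 192 higher genes 44 did, so 76 lower and 148 higher genes fell outside all of them.

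The OVCAR3 arrays, with another target and their own siControl, share several of these genes. Of the 139 higher RMG1 genes that were also bright in OVCAR3 cells, 22 (15.8%) were past the ratio upward and 2 (1.44%) downward with both siBHLHE41 siRNAs, against 2.54% and 1.56% of the 6654 genes bright in both lines. The 22 were 13.02% of the 169 such genes higher in OVCAR3. Of the 93 lower RMG1 genes bright in OVCAR3 cells, 9 (9.68%) were lower there and 1 (1.08%) higher, and the 9 were 8.65% of the 104 lower in OVCAR3. ZDHHC20 was among the higher in both, reading 11.51 with siBHLHE41 #A, 12.35 with #B and 10.04 with siControl in OVCAR3 cells. TNFAIP3 was among the lower in both, reading 12.16 with siBHLHE41 #A, 10.75 with #B and 13.20 with siControl in OVCAR3 cells. ETS1, PLAU, CXCL1, SERPINE2, TGFA, NRG1, CSF1 and SVIL were the other 8 lower genes, of which CSF1, a macrophage growth factor, and SVIL were named after their values were seen. LSS, of cholesterol synthesis, was lower in RMG1 cells (8.17 with #A, 8.26 with #B, 8.97 with siControl) and higher in OVCAR3 cells (9.63 with siBHLHE41 #A, 9.85 with #B and 8.64 with siControl). In limma's test of the difference between the 2 comparisons 0 of 21448 probes had an adjusted p under 0.05 (lowest adjusted p from limma 0.999) and 921 had an unadjusted p under 0.05. Cell line and targeted gene cannot be told apart here.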

How the data were processed

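Total RNA of each transfection was hybridised to 1 Clariom S array. The deposited values are log2 expression values, which the authors normalized by RMA in Affymetrix Expression Console (no versions are given in the sources used here). The highest deposited values, 17.7 to 18.4, exceed the log2 of a 16-bit scanner's full scale, so a further scaling is not described and ratios may be stretched or shrunk. No depth applies to arrays, and their number (1 per siRNA) limits the precision. No source says that the arrays came from separate cultures, so p-values measure the spread between these arrays alone. Probes were named through the platform annotation, 3739 transcript probes without a single gene symbol were counted apart, and probes of a gene were averaged. limma 3.58.1 (R 4.3.3) fitted 4 groups to the 6 arrays with Benjamini-Hochberg adjustment over 21448 probes, after testing on simulated data. Genes named are CPNE8, the 15 bright genes furthest from siControl in each direction among those past the ratio with both siRNAs, the defining members of each list, and up to 6 further bright members past the ratio. Members and lists were chosen with earlier results of these data known. Alternatives were other ratios, brightness limits, quantile normalization, median centring, other fits and single siRNAs. Promoters are from RefSeq. Python 3.11.15 and pandas 2.3.3 were used.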

Additional observations from a re-analysis of the deposited data

How the results depend on the processing

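Quantile normalization, median centring and a requirement that all 3 RMG1 arrays be above background kept the counts of bright genes within 1.5 times of 192 higher and 133 lower, at 166, 195 and 158 higher and 145, 128 and 117 lower. At 2-fold and 0.5-fold the counts were 36 higher and 30 lower, with bright set at the 99th percentile of negative controls (11.3, 3068 genes) 50 and 37, and over all named genes 444 and 478. Single siRNAs gave 387 to 582 higher and 276 to 615 lower. In limma 0 probes passed under each of the 7 fits, with the lowest adjusted p between 0.437 (without #B) and 0.993 (RMG1 arrays alone). List medians kept within the siRNAs' spread under both rescalings in 53 lists. By single siRNA they ranged from -0.77 to -0.21 for the EGF receptor family, -0.014 to 0.10 for epithelial and mesenchymal regulators, -0.21 to -0.027 for G1 genes, 0.073 to 0.36 for potassium channels and -0.13 to 0.38 for mucins. These ranges are the difference between the siRNAs itself and say nothing of stability. The medians of the MYC network (-0.38 with #A, 0.06 with #B) and of cholesterol synthesis (-0.30 with #A, 0.11 with #B) lay on opposite sides of siControl. So did those of other lists, among them replication (-0.13 with #A, 0.13 with #B), amino acid carriers (-0.03 with #A, 0.13 with #B) and synaptic genes (-0.07 with #A, 0.28 with #B). Under quantile normalization PIAS3 (mean log2 ratio 1.26), GBP2 (0.75), CD55 (0.61) and SLC7A2 (1.02) were no longer over 1.5-fold with both siRNAs. No named gene changed sign under a rescaling where it had passed the ratio. No paired analysis was possible because there is 1 siControl array, without a number to share. For these alternatives the cause was not tested. For genes near background the lower side of the ratio is a bound, and 246 genes lie within 0.1 of the bright threshold.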

Other observations

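Dim genes, which were kept apart from the results above, held larger counts on the lower side. With both siRNAs 252 of 10096 (2.50%) were past the ratio upward and 345 (3.42%) downward, against 2.53% and 1.75% of bright genes. The clearest of them were above background in one condition. KCNMA1, a calcium-activated potassium channel, read 6.07 with #A, 6.88 with #B and 8.91 with siControl, above background with siControl alone, where it was at least 2.04-fold higher than with siCPNE8. STK32B, a serine/threonine kinase, read 8.54 with #A, 8.01 with #B and 5.97 with siControl, above background with both siCPNE8 siRNAs, where it was at least 1.23-fold higher than with siControl. SELENOP, the plasma carrier of selenium, read 8.96 with #A, 7.62 with #B and 6.40 with siControl, above background with #A alone.

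The 7 bright genes that were past the ratio in opposite directions with the 2 siRNAs were CSH2, HOXB9, ADGRG1, APOBEC3B, ABCA4, EEF2KMT and FANK1, chosen after their values were seen. CSH2, a placental lactogen gene with near-identical neighbours, read 9.21 with #A, 12.43 with #B and 11.51 with siControl. HOXB9, a homeobox factor, read 10.42 with #A, 12.40 with #B and 11.81 with siControl, and FANK1 read 9.23 with #A, 7.62 with #B and 8.44 with siControl, the sole gene of the 7 that was higher with #A. The siRNA sequences were not compared with these transcripts.

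Higher and lower genes lay on many chromosomes, in unequal shares that were not tested. Among the bright genes of a chromosome the share of higher genes ran up to 4.26% on chromosome 22 (6 of 141, with 0 lower), and the share of lower genes ran up to 3.53% on chromosome 8 (10 of 283). Low shares were seen on chromosome 15 (1 of 250 in each direction), chromosome 17 (2 of 435 higher) and chromosome 16 (1 of 311 lower). Over all bright genes the shares were 2.53% higher and 1.75% lower. Of 1106 bright transcript probes without a single gene symbol 24 were higher and 16 lower.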
